A study of Mus musculus with 9 samples.

Results

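The genes described here encode the proteins of the cytosolic ribosome. They were taken as every probe set whose platform annotation gives a single symbol made of Rpl or Rps and a number, with an optional a, l, x or y ending, or the symbol Rplp0, Rplp1, Rplp2 or Rpsa. Pseudogenes and the Rps6k kinases were not taken. This rule found 68 of 36899 probe sets, for 42 genes, of which 22 encode proteins of the large subunit and 20 proteins of the small subunit. The A array holds 47 of them, the B array 1 and the C array 20.

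The arrays compared 3 mouse stromal cell lines, each hybridised once to each of 3 Affymetrix array types (MG-U74A, B and C) that carry different probe sets. AGM-s3-A9 is a line that supports hematopoiesis and comes from the AGM (aorta-gonad-mesonephros) of the embryo, a site where hematopoietic stem cells first arise. OP9 is a supportive line from newborn mouse calvaria. AGM-s3-A7 is a non-supportive line from the AGM region and is the line against which the others are set. The sources used here give no strain, genotype, passage or culture conditions. With 1 array per line and array type no replicate error and no p-value can be given, so each difference is a fold between single arrays. As a partial scale, the disagreement between probe sets was taken from genes with a pair of them in the brightest 10% of 1 array type. The robust SD of a log2 ratio was 0.27 for AGM-s3-A9 over AGM-s3-A7, 0.28 for OP9 over AGM-s3-A7 and 0.31 for OP9 over AGM-s3-A9 (216 genes each). Each pair was read on the same arrays, so these SDs do not cover error that the probe sets of an array share. They do not cover separate cultures either. Intensities were quantile-normalized within each array type, and "measured" means a mean over all 3 lines above the detection level (49.0 for the A type, 52.8 for the B type and 61.6 for the C type). Of the stromal markers, Col1a1, Col1a2, Col3a1, Sparc and Pdgfrb were above that level in every line. Thy1 read 416 on the AGM-s3-A9 array, 4.61 on the OP9 array and 206 on the AGM-s3-A7 array, so this marker was below the level in OP9, and the probe set of Vim was below it in all 3 lines. All 5 hematopoietic and all 3 endothelial markers were below it in every line. The epithelial markers Epcam and Cdh1 were above it, between 84.5 and 126 over the 3 lines, and Krt8 was below.

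The ribosome is built from a small subunit, which reads the messenger RNA, and a large subunit, which joins amino acids. Each subunit holds ribosomal RNA and a set of proteins that are needed in fixed proportions, and their messenger RNAs are among the most abundant in growing cells. In mammals these messenger RNAs start with a run of pyrimidines, the 5′ terminal oligopyrimidine (TOP) tract, through which the growth-regulating kinase mTOR controls their translation. In people, inherited loss of a copy of several of these genes causes Diamond-Blackfan anemia, a failure of red cell production.

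After quantile normalization the measured ribosomal protein probe sets, each with 1 symbol, stood in median at nearly the same level in the 3 lines. The sign of their small median difference changed with the scaling in all 3 comparisons, as given further on. Of the 68 probe sets 30 were measured, for 25 genes. Their median log2 ratio was -0.02 for AGM-s3-A9 over AGM-s3-A7, 0.03 for OP9 over AGM-s3-A7 and 0.03 for OP9 over AGM-s3-A9. The medians over all 11896 measured probe sets were -0.01, 0.03 and 0.03 in the same order. Quantile normalization brings these medians of all probe sets close to 0. The interquartile range of log2 ratios was 0.24 for AGM-s3-A9 over AGM-s3-A7, 0.27 for OP9 over AGM-s3-A7 and 0.33 for OP9 over AGM-s3-A9, beside 0.59, 0.72 and 0.73 over all measured probe sets. Of the 30 members 26 lie among the brightest 10% of all probe sets of their array type, and their interquartile ranges there were 0.22, 0.24 and 0.31 in the same order, beside 0.55, 0.69 and 0.72 over the 3672 probe sets of that class. At a limit chosen after seeing the values, above 3000 in all lines on MG-U74A, the range for AGM-s3-A9 over AGM-s3-A7 was 0.21 over 14 ribosomal protein probe sets and 0.20 over 29 others. These 29 leave out probe sets that join a ribosomal protein gene to other symbols, but include Rps3a1. There the range was 0.12 and 0.24 for OP9 over AGM-s3-A7, and 0.12 and 0.32 for OP9 over AGM-s3-A9.

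At a fold of at least 1.5, AGM-s3-A9 was higher than AGM-s3-A7 on 0 of the 30 probe sets, beside 10.8% of all measured probe sets, and lower on 3, beside 10.5%. OP9 was higher than AGM-s3-A7 on 1, beside 15.1%, and lower on 0, beside 14.9%. OP9 was higher than AGM-s3-A9 on 4, beside 15.8%, and lower on 0, beside 14.8%. In the brightest 10% of probe sets the shares were 9.37% higher and 9.20% lower for AGM-s3-A9 over AGM-s3-A7, 13.6% and 15.5% for OP9 over AGM-s3-A7, and 14.6% and 15.7% for OP9 over AGM-s3-A9. Above 1000 in all lines, 17 of all 345 probe sets were higher and 15 lower for AGM-s3-A9 over AGM-s3-A7. Of the 21 members there, 0 were higher and 1 lower. For OP9 over AGM-s3-A7 these were 29 and 27 of 345, beside 0 and 0 of 21. For OP9 over AGM-s3-A9 they were 31 and 22, beside 1 and 0. Above 3000 on MG-U74A, 0 of the 14 members reached 1.5-fold in any comparison. Of the 29 others there, 0, 1 and 0 were higher and 0, 3 and 1 lower, in the same order of comparisons. The 2 comparisons against AGM-s3-A7 share its arrays. The calls over the 30 members come from 4 probe sets, 1 each of Rpl10a, Rplp0, Rplp2 and Rps29. Of these, the Rps29 probe set was below the detection level in AGM-s3-A9. Against that level OP9 stood at least 1.26-fold above AGM-s3-A9 for Rps29, so only 3 of the 4 calls of OP9 over AGM-s3-A9 reach 1.5-fold as a bound. Just under the threshold lay Rpl13a, for which OP9 stood 1.48-fold above AGM-s3-A7. The plot of intensity by probe set shows all 30.

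**Figure D1:**
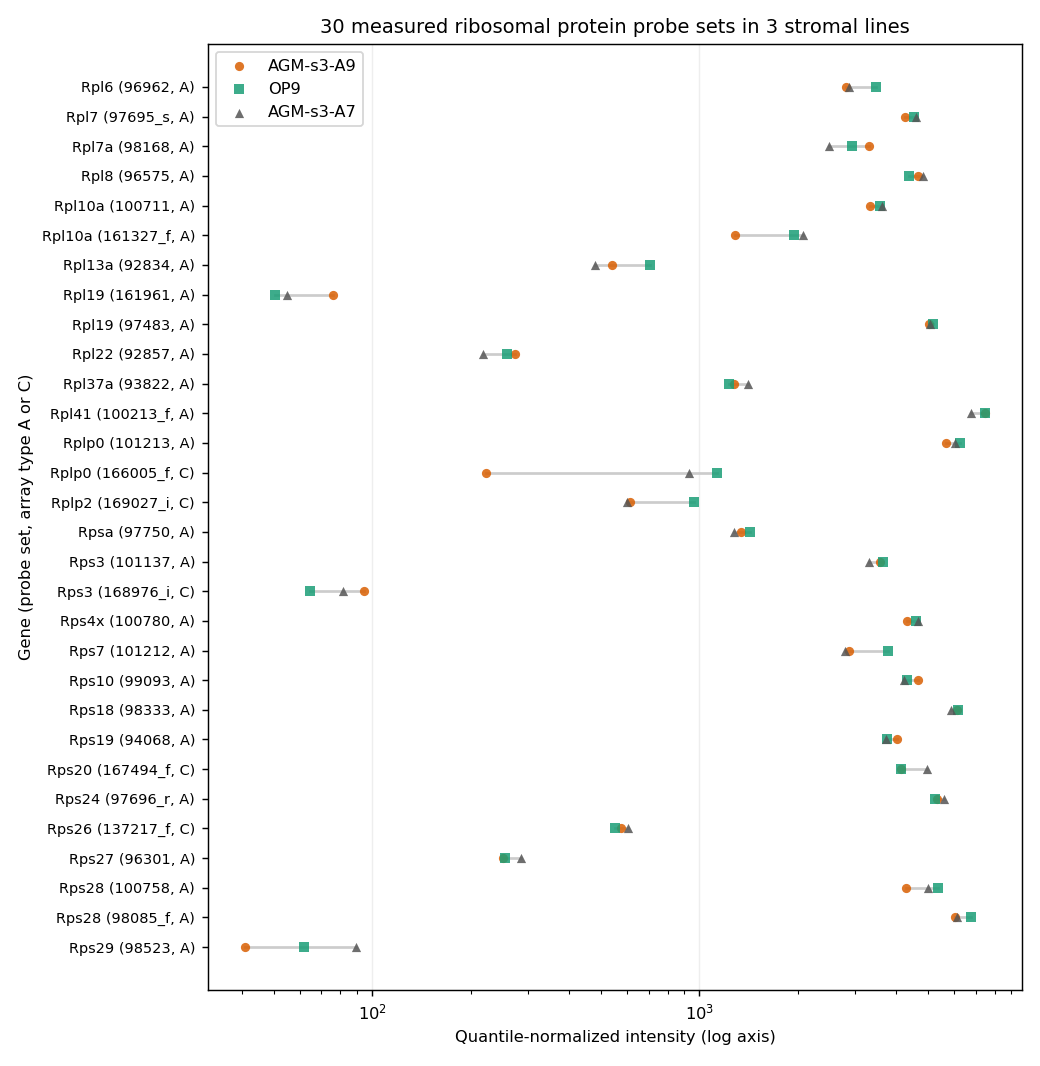
Quantile-normalized intensity (log axis) of the 30 measured ribosomal protein probe sets, 1 row each with the array type as A or C, in AGM-s3-A9 (circles), OP9 (squares) and AGM-s3-A7 (triangles); each symbol is 1 array and there are no error bars because there are no replicates. In most rows the 3 symbols lie close together, and the widest row is the MG-U74C probe set of Rplp0, with 223 on the AGM-s3-A9 array, 1134 on the OP9 array and 928 on the AGM-s3-A7 array.

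The annotated starts of the genes were examined for the TOP tract that the family shares. RefSeq promoter sequences of assembly GRCm38.p6 were matched for 35 of the 42 genes. A run of at least 8 consecutive bases that are each C or T, on the transcribed-sense strand and reaching within 5 bases of an annotated start, was found for 14 of these 35 genes (40.0%) and for 2962 of 27025 genes in the whole table (10.96%). Annotated starts can lie some bases away from the start used in a cell, and a match is a description of letters, not of a working site. The following windows, 30 bases before to 20 bases after the start, show the tract in genes of both subunits and of the stalk, with the run in capitals, and end with Rps7, in which no such run reaches within 5 bases of the start.
Rpl7a, chr2:26910777-26910826, plus strand: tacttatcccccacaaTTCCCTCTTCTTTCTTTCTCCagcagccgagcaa
Rpl13a, chr7:45128726-45128775, minus strand: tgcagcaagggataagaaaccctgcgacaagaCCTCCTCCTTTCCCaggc
Rplp2, chr7:141447621-141447670, plus strand: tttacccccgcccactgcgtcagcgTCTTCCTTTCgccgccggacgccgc
Rps10, chr17:27635225-27635274, minus strand: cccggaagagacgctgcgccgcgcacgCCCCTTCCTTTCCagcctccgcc
Rps18, chr17:33955646-33955695, minus strand: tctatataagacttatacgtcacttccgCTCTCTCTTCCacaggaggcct
Rps27, chr3:90213629-90213678, minus strand: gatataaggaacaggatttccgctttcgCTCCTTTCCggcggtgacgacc
Rps7, chr12:28635934-28635983, minus strand: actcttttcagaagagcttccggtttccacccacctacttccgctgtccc
Among measured genes with a promoter sequence, 9 had such a run and 12 did not. Their median log2 ratio for OP9 over AGM-s3-A7 was 0.03 with a run (from -0.16 to 0.68) and 0.14 without (from -0.19 to 0.44). For AGM-s3-A9 over AGM-s3-A7 the medians were 0.04 and 0.01. The ranges of both groups of genes overlapped in each comparison.

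Among the proteins of the large subunit, Rpl7a read 3313 on the AGM-s3-A9 array, 2921 on the OP9 array and 2485 on the AGM-s3-A7 array. AGM-s3-A9 thus stood 1.33-fold and OP9 1.18-fold above AGM-s3-A7, with AGM-s3-A9 highest. Rpl22, which in mice is needed for the development of alpha-beta T cells, read 273 on the AGM-s3-A9 array, 258 on the OP9 array and 218 on the AGM-s3-A7 array. Both supportive lines were above AGM-s3-A7 for these genes, by less than 1.5-fold. Rpl13a, which encodes a protein that in human cells also silences inflammatory transcripts, read 539.8 on the AGM-s3-A9 array, 709 on the OP9 array and 479.6 on the AGM-s3-A7 array. Here AGM-s3-A9 stood 1.13-fold and OP9 1.48-fold above AGM-s3-A7. Rpl6 read 2813 on the AGM-s3-A9 array, 3473 on the OP9 array and 2866 on the AGM-s3-A7 array, so OP9 stood 1.21-fold above AGM-s3-A7 and the AGM lines were alike within 1.02-fold.

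Rpl8, whose protein lies beside the peptidyl transferase centre, read 4678 on the AGM-s3-A9 array, 4364 on the OP9 array and 4837 on the AGM-s3-A7 array. Rpl37a, which encodes a zinc-binding protein, read 1277 on the AGM-s3-A9 array, 1234 on the OP9 array and 1407 on the AGM-s3-A7 array. For both, AGM-s3-A7 was highest, with log2 ratios between -0.19 and -0.05, within the SDs of a log2 ratio given above. Rpl7 read 4249 on the AGM-s3-A9 array, 4533 on the OP9 array and 4606 on the AGM-s3-A7 array on an _s_at probe set. The bright probe set of Rpl19 read 5049 on the AGM-s3-A9 array, 5188 on the OP9 array and 5079 on the AGM-s3-A7 array. Rpl41, which encodes the shortest ribosomal protein, had an _f_at probe set. It read 7495 on the AGM-s3-A9 array, 7495 on the OP9 array and 6772 on the AGM-s3-A7 array. The equal values arise because quantile normalization gives probe sets of equal rank the same value.

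The stalk of the large subunit, which recruits the elongation factors, is formed by the proteins of Rplp0, Rplp1 and Rplp2. Rplp2 read 616 on the AGM-s3-A9 array, 965 on the OP9 array and 601 on the AGM-s3-A7 array on its probe set of MG-U74C. OP9 was 1.60-fold higher than AGM-s3-A7 and 1.57-fold higher than AGM-s3-A9, and the AGM lines lay within 1.02-fold of each other. Rplp2 is the only measured member for which OP9 reached 1.5-fold above AGM-s3-A7. With the deposited values that log2 ratio was -0.04, beside a median of -0.65 over all 1519 measured probe sets of MG-U74C. Its suffix (_i_at) marks a probe set with fewer probes than the usual design. Rplp0 was read on both array types with different results. On MG-U74A it read 5663 on the AGM-s3-A9 array, 6273 on the OP9 array and 6053 on the AGM-s3-A7 array. On MG-U74C an _f_at probe set read 223 on the AGM-s3-A9 array, 1134 on the OP9 array and 928 on the AGM-s3-A7 array. The MG-U74C reading placed AGM-s3-A9 4.17-fold below AGM-s3-A7, and the MG-U74A reading 1.07-fold below. The suffix _f_at marks probes that can match several related sequences, and the part of such sequences in the difference was not tested. Rplp1 had no probe set with its symbol alone and is not analysed here.

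Rpl10a, whose protein forms the stalk near the exit site for transfer RNA, also had a pair of measured probe sets. The first read 3333 on the AGM-s3-A9 array, 3572 on the OP9 array and 3631 on the AGM-s3-A7 array. The second, an _f_at probe set, read 1287 on the AGM-s3-A9 array, 1947 on the OP9 array and 2082 on the AGM-s3-A7 array, which places AGM-s3-A9 1.62-fold below AGM-s3-A7. AGM-s3-A9 was lowest on both, and the fold reached 1.5 on the _f_at probe set only. For Rpl19 a second probe set read 75.7 on the AGM-s3-A9 array, 50.6 on the OP9 array and 54.9 on the AGM-s3-A7 array, close to the detection level.

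Among the proteins of the small subunit, Rps7 read 2866 on the AGM-s3-A9 array, 3787 on the OP9 array and 2797 on the AGM-s3-A7 array. OP9 was 1.35-fold higher than AGM-s3-A7 and 1.32-fold higher than AGM-s3-A9, and the AGM lines lay within 1.02-fold of each other. Under each of the 5 normalizations tried the Rps7 log2 ratio for OP9 over AGM-s3-A7 was above 0, while for OP9 over AGM-s3-A9 it was -0.03 with the deposited values. Rps28 read 4290.1 on the AGM-s3-A9 array, 5380.4 on the OP9 array and 5001 on the AGM-s3-A7 array on its unsuffixed probe set. On an _f_at probe set Rps28 read 6053 on the AGM-s3-A9 array, 6772 on the OP9 array and 6145 on the AGM-s3-A7 array. Both probe sets placed OP9 highest and AGM-s3-A9 lowest. Rps28, like Rps7, Rps10, Rps19, Rps24, Rps26, Rps27 and Rps29, has been found altered in people with Diamond-Blackfan anemia.

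Rps19, the gene most often altered in that disease, read 4032 on the AGM-s3-A9 array, 3748 on the OP9 array and 3711 on the AGM-s3-A7 array. Rps10 read 4657 on the AGM-s3-A9 array, 4304 on the OP9 array and 4213 on the AGM-s3-A7 array. For both, AGM-s3-A9 was highest and the lines lay within 1.11-fold, also within those SDs of a log2 ratio. Rps24 read 5341 on the AGM-s3-A9 array, 5249 on the OP9 array and 5598 on the AGM-s3-A7 array on an _r_at probe set. Rps26 read 577 on the AGM-s3-A9 array, 554 on the OP9 array and 607 on the AGM-s3-A7 array on an _f_at probe set of MG-U74C. Rps27, which encodes a zinc-finger protein, read 251 on the AGM-s3-A9 array, 255 on the OP9 array and 285 on the AGM-s3-A7 array. In these last genes AGM-s3-A7 was highest, with log2 ratios from -0.18 to -0.07, within the SDs of a log2 ratio given above.

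Rps29, which encodes another zinc-binding protein, was read near the detection level, with 40.8 on the AGM-s3-A9 array, 62.0 on the OP9 array and 89.0 on the AGM-s3-A7 array. The AGM-s3-A9 value lay below the detection level, so AGM-s3-A9 stood at least 1.82-fold below AGM-s3-A7, and OP9 stood 1.44-fold below AGM-s3-A7 and at least 1.26-fold above AGM-s3-A9. With each gene taken by its brightest probe set, Rps29 alone separated the AGM lines by 1.5-fold.

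Rps20 read 4134 on the AGM-s3-A9 array, 4134 on the OP9 array and 4966 on the AGM-s3-A7 array on an _f_at probe set of MG-U74C. Rps18 read 6145 on the AGM-s3-A9 array, 6174 on the OP9 array and 5883 on the AGM-s3-A7 array. Rps4x, the X-linked gene of its protein, read 4304 on the AGM-s3-A9 array, 4587 on the OP9 array and 4657 on the AGM-s3-A7 array. These log2 ratios lay between -0.26 and 0.07. Rpsa, whose protein belongs to the small subunit and was first described as a laminin receptor, read 1344 on the AGM-s3-A9 array, 1433 on the OP9 array and 1277 on the AGM-s3-A7 array. Rps3, whose protein lies where the messenger RNA enters, read 3572 on the AGM-s3-A9 array, 3636 on the OP9 array and 3313 on the AGM-s3-A7 array. A dim probe set of Rps3 on MG-U74C read 94.7 on the AGM-s3-A9 array, 64.5 on the OP9 array and 81.4 on the AGM-s3-A7 array, so that AGM-s3-A7 was lowest on one probe set and in the middle on the other. By subunit, the median log2 ratio for OP9 over AGM-s3-A7 was 0.05 over 15 large-subunit probe sets and 0.01 over 15 small-subunit probe sets. For AGM-s3-A9 over AGM-s3-A7 it was -0.03 and -0.02.

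The other 38 probe sets were not measured. Of these, 36 lay at or below the detection level in all 3 lines, and 2 exceeded it in 1 line, at 52.7 for an _r_at probe set of Rps28 in AGM-s3-A9 and at 50.96 for a probe set of Rpl22 in OP9. They leave 17 of the 42 genes without a measured level. In 9 genes a measured and an unmeasured probe set stood side by side. For Rps4x, 1 probe set was measured and 4 read between 3.40 and 39.0. A low reading of such a probe set therefore does not give the level of the gene. The paralogs Rpl3l, which in mice is made in muscle, Rpl10l, which is made in the testis, Rpl39l, Rps4l and Rps27l were read by 8 probe sets, all below the detection level in all 3 lines, the highest being Rps4l at 41.2 in AGM-s3-A7. Rpl3, Rpl5, Rpl10, Rpl11 and Rps27a had no probe set with their symbol alone and are not analysed here.

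The sign of the family's median against 0 depended on how the arrays were brought to 1 scale. As deposited, the median log2 ratio on MG-U74A was 0.68 over all 6165 measured probe sets for AGM-s3-A9 over AGM-s3-A7, but 0.30 over the 25 ribosomal protein probe sets there. The deposited median for AGM-s3-A9 over AGM-s3-A7 was 0.63 over the 1243 probe sets in the brightest 10% of that array type. Above 1000 in all lines, over all array types, it was 0.21 over 21 ribosomal protein probe sets and 0.42 over all 345 probe sets. Above 3000 in all lines on MG-U74A it was 0.19 over 14 ribosomal protein probe sets and 0.26 over 29 others. What sets the members' deposited ratios apart was not tested. With scaling to the 75th percentile the members' median was -0.33 for AGM-s3-A9 over AGM-s3-A7, -0.12 for OP9 over AGM-s3-A7 and 0.37 for OP9 over AGM-s3-A9. All measured probe sets had -0.02, -0.02 and 0.003 there. With cyclic loess, which follows brightness by a curve, the members' median was -0.14, 0.06 and 0.26 in the same order. All measured probe sets had -0.004, 0.01 and 0.003 there. With scaling to spiked hybridization controls the members' median was -0.05, 0.12 and 0.18, where all measured probe sets had 0.22, 0.22 and -0.01. With the deposited values it was 0.21, -0.04 and -0.25, where all measured probe sets had 0.18, 0.07 and -0.21. These deposited medians pool array types of unlike offset. For AGM-s3-A9 over AGM-s3-A7 all measured probe sets had 0.68 on MG-U74A but -0.39 on MG-U74C. On MG-U74A lie 25 of the 30 members but 6165 of the 11896 measured probe sets. There the members had 0.30, -0.02 and -0.25, beside 0.68, 0.11 and -0.57 over all measured probe sets. The sign for AGM-s3-A9 over AGM-s3-A7 was thus below 0 in 4 settings and above 0 as deposited, and for OP9 over AGM-s3-A9 above 0 in 4 settings and below 0 as deposited. Beside all measured probe sets, the members were lower for AGM-s3-A9 over AGM-s3-A7 in those 4 settings, by quantile normalization only -0.02 beside -0.01. For OP9 over AGM-s3-A9 they were higher with the 75th percentile, cyclic loess and spiked controls, and alike by quantile normalization. As deposited they were lower for the first and higher for the second on MG-U74A, and the reverse over pooled types. For OP9 over AGM-s3-A7 the order changed with the setting.

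**Figure D2:**
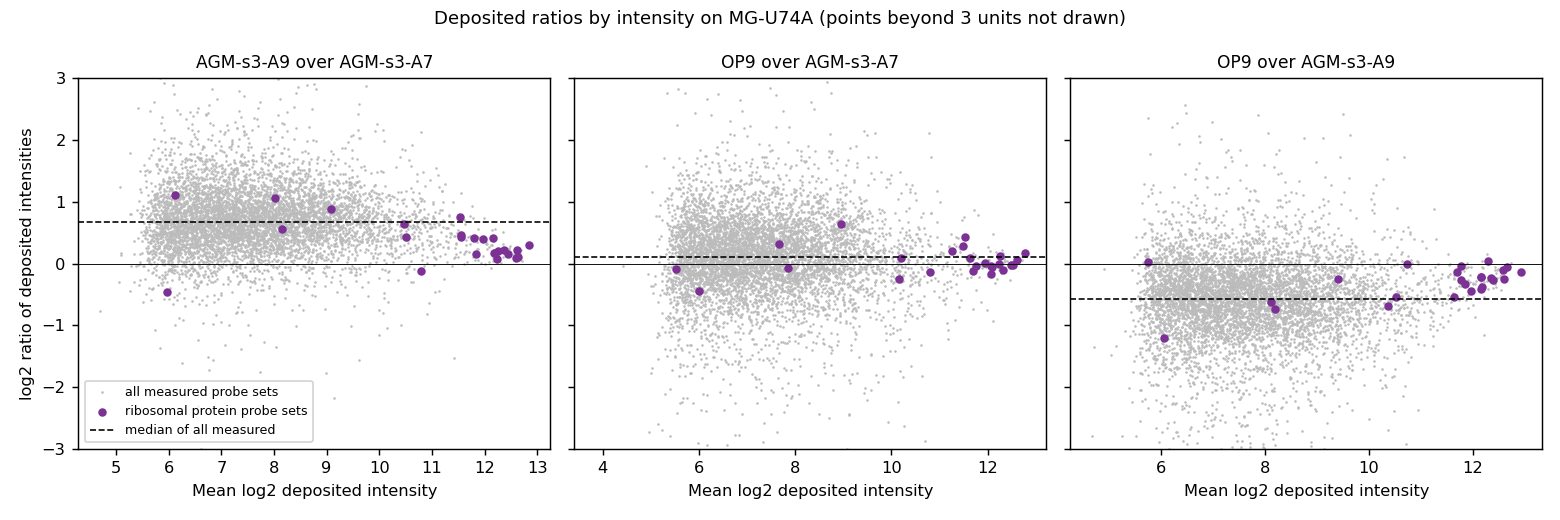
Log2 ratio of deposited intensities (vertical axis) against mean log2 deposited intensity of the 2 lines (horizontal axis) on MG-U74A, with 1 panel per comparison. Grey points are all measured probe sets, purple points the 25 measured ribosomal protein probe sets, and the dashed line is the median over all; in the panel of AGM-s3-A9 over AGM-s3-A7 the line stands at 0.68 and the median of the purple points is 0.30.

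**Figure D3:**
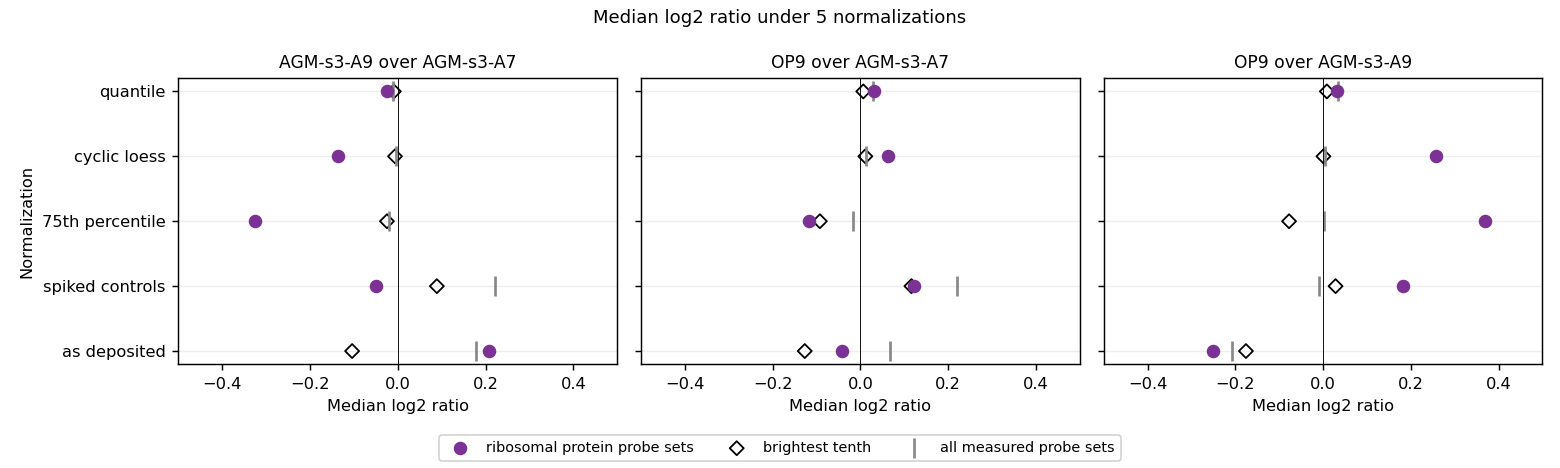
Median log2 ratio (horizontal axis) under 5 normalizations (vertical axis) in each comparison, for the ribosomal protein probe sets (purple circles), the brightest 10% of probe sets (open diamonds) and all measured probe sets (grey bars). For AGM-s3-A9 over AGM-s3-A7 the members' medians run from -0.33 with scaling to the 75th percentile to 0.21 as deposited. The deposited medians pool array types of unlike offset.

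Other genes of translation were set beside the ribosomal proteins, each gene by its brightest measured probe set. Of the 25 ribosomal protein genes, 1 was at least 1.5-fold higher and 0 lower for OP9 over AGM-s3-A7, beside 15.2% higher and 14.5% lower over all 7992 measured genes. Of 64 measured ribosome biogenesis genes, 30 were higher and 1 lower, with a median log2 ratio of 0.56. Among them Polr1a, the largest subunit of RNA polymerase I, read 101 on the AGM-s3-A9 array, 295 on the OP9 array and 74.3 on the AGM-s3-A7 array. Rrs1, a factor of large-subunit assembly, read 148 on the AGM-s3-A9 array, 387 on the OP9 array and 109 on the AGM-s3-A7 array. Noc3l read 69.0 on the AGM-s3-A9 array, 197 on the OP9 array and 51.1 on the AGM-s3-A7 array, where it lay below the detection level of MG-U74C. Nop2, an RNA methyltransferase of the nucleolus, read 155 on the AGM-s3-A9 array, 595 on the OP9 array and 241 on the AGM-s3-A7 array. Polr1d, a subunit shared by RNA polymerases I and III, was the 1 lower gene, with 125 on the AGM-s3-A9 array, 86.7 on the OP9 array and 131 on the AGM-s3-A7 array. The difference between both lists was not tested. The biogenesis median for OP9 over AGM-s3-A7 was above 0 under all 5 normalizations (0.51 to 0.75). With 28 to 42 genes higher the share was 43.75% to 65.6%, beside 14.0% to 25.3% of all measured genes.

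Between the AGM lines the biogenesis list had 3 genes higher and 5 lower in AGM-s3-A9, beside 11.0% and 9.38% of all measured genes, and the ribosomal protein list 0 higher and 1 lower. The biogenesis direction here turned with the scaling, and the values over all measured genes moved as well. The median was -0.12 by quantile normalization but 0.49 with the deposited values (24 higher, 4 lower) and 0.26 with spiked controls (16 higher, 2 lower). All measured genes had 0.29 and 0.25 there. As deposited 37.5% of the biogenesis genes were higher, beside 35.1% of all measured genes. With spiked controls 25% were higher, beside 24.7%. The deposited values pool array types of unlike offset, as given above. The genes lower by quantile normalization included Myc, a transcription factor that drives ribosome production, with 85.5 on the AGM-s3-A9 array and 177 on the AGM-s3-A7 array. For OP9 over AGM-s3-A9, 37 biogenesis genes were higher and 0 lower, and 2 ribosomal protein genes were higher and 0 lower, beside 15.7% and 15.3% of all genes. Of these 2, Rplp2 reached 1.5-fold and Rps29 has only the bound of at least 1.26-fold. With the deposited values 17 biogenesis genes were higher and 6 lower, beside 19.8% and 32.6% of all measured genes. Their median was then 0.16 in place of 0.64, where all measured genes had -0.24. Polr1a and Nop2 lie on chromosome 6, whose 436 measured genes had a median of 0.41 for OP9 over AGM-s3-A7, while the 347 genes of chromosome 15 had -0.53. Without both chromosomes 27 of 57 biogenesis genes were higher and 1 lower for OP9 over AGM-s3-A7, beside 14.3% and 13.5% of all measured genes. Among measured ribosomal protein genes none lies on chromosome 6, and Rpl8 alone lies on chromosome 15, with a log2 ratio of -0.15 for OP9 over AGM-s3-A7.

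The proteins of the mitochondrial ribosome, encoded by a separate gene family, had 10 of 64 measured genes at least 1.5-fold higher and 1 lower for OP9 over AGM-s3-A7, with a median of 0.18. The share higher, 15.6%, is close to the 15.2% over all measured genes. With spiked controls 21 were higher, or 32.8%, beside 25.3% of all measured genes. Mrps6 read 302 on the AGM-s3-A9 array, 561 on the OP9 array and 145 on the AGM-s3-A7 array. The list of initiation, elongation and release factors also holds genes related to them, such as Eif4ebp1 and Eef1e1. For OP9 over AGM-s3-A7 it had 7 of 29 higher, among them these genes, and 0 lower. Its median was 0.25, and the shares over all measured genes were the same 15.2% higher and 14.5% lower. Over the 5 normalizations 5 to 11 were higher, or 17.2% to 37.9%, beside 14.0% to 25.3% of all measured genes. The initiation factor gene Eif2b5 read 164 on the AGM-s3-A9 array, 222 on the OP9 array and 112 on the AGM-s3-A7 array. Eif4ebp1, a repressor of cap-dependent initiation under mTOR control, read 106 on the AGM-s3-A9 array, 338 on the OP9 array and 216 on the AGM-s3-A7 array, and stood lowest in AGM-s3-A9. Of 18 other measured genes with a TOP tract or bound to the ribosome, 5 were higher and 2 lower for OP9 over AGM-s3-A7, with a median of -0.02 that was 0.07 with spiked controls. Gas5, a noncoding TOP transcript that hosts small nucleolar RNAs, read 157 on the AGM-s3-A9 array, 3418 on the OP9 array and 246 on the AGM-s3-A7 array. Snhg12, another host transcript, read 90.4 on the AGM-s3-A9 array, 359 on the OP9 array and 112 on the AGM-s3-A7 array. The lower members were Eif4b, on chromosome 15, with 592 on the AGM-s3-A9 array, 483 on the OP9 array and 827 on the AGM-s3-A7 array, and Btf3, with 1226 on the AGM-s3-A9 array, 761 on the OP9 array and 1149 on the AGM-s3-A7 array. For AGM-s3-A9 over AGM-s3-A7 this list had a median of -0.31, with 0 genes higher and 3 lower, beside 11.0% and 9.38% of all measured genes. That median was below 0 under 4 normalizations and 0.19 with the deposited values, where all measured genes had 0.29. With spiked controls 0 genes were lower, beside 5.18% of all measured genes. Of the 18 genes, 5 lie on chromosome 15, and without chromosomes 6 and 15 the median over 13 genes was -0.09, with 2 lower.

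**Figure D4:**
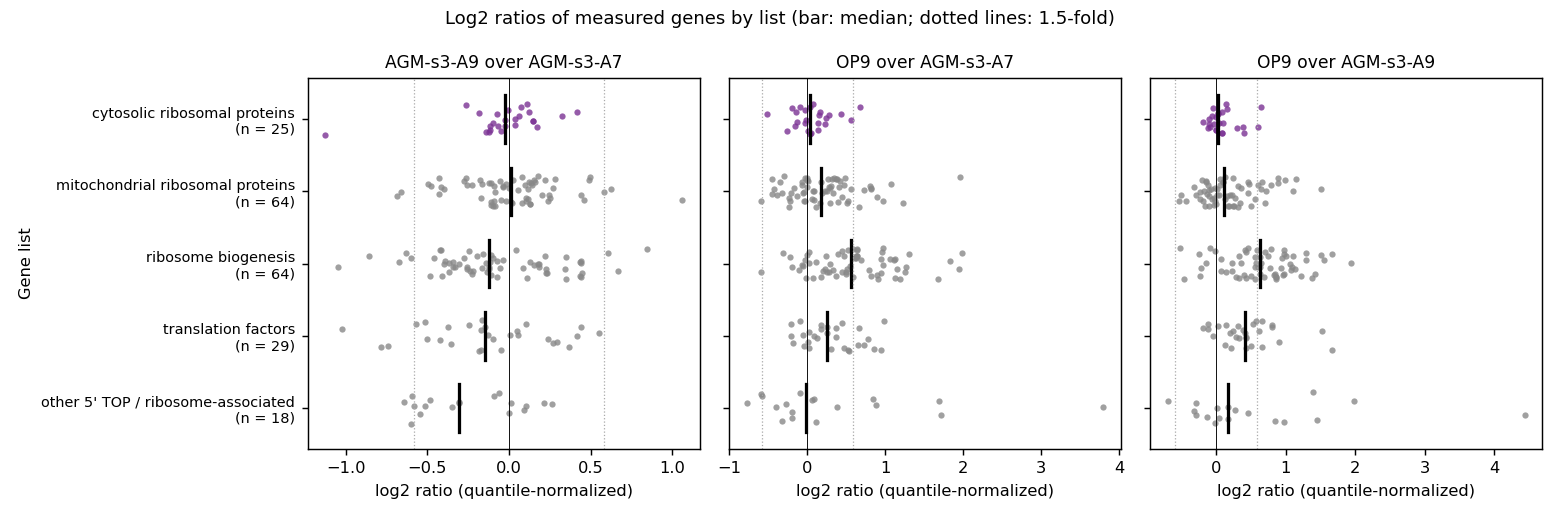
Log2 ratio of quantile-normalized intensity (horizontal axis) of each measured gene, by list (rows) and comparison (panels); each point is 1 gene by its brightest probe set, the bar is the median and dotted lines mark 1.5-fold. Most ribosomal protein genes lie near 0. Beyond 1.5-fold lie Rplp2, at 0.68 for OP9 over AGM-s3-A7 and 0.65 for OP9 over AGM-s3-A9, and Rps29 in both panels with AGM-s3-A9. The AGM-s3-A9 value of Rps29 lay below the detection level. The 64 biogenesis genes have a median of 0.56 for OP9 over AGM-s3-A7.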

How the data were processed

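The authors deposited 1 linear intensity per probe set and array in the value tables, for 9 arrays. Biotinylated cRNA came from 6 ug of RNeasy-purified RNA, per the labels' protocols. The scanner software, summarisation of probes and scaling: not given in the sources used here. Means trimmed by 2% differed between arrays of a type by up to 61.1%, so log2 intensities were quantile-normalized within each type (limma 3.58.1, R 4.3.3, tested on simulated data). The number of arrays limits the precision. The detection level is the higher of the array type's median and the 95th percentile of 34 negative control probe sets. Symbols came from the platform annotation, and all 42 matched the RefSeq table of GRCm38.p6 by gene identifier, which gave the chromosomes. Suffixed probe sets may cross-hybridise. Members and lists were chosen with earlier results of these data known, and the limit of 3000 was chosen after seeing the values. Genes named are the 6 per direction and comparison with the largest fold, the 5 brightest, any with 3 or more measured probe sets, and a fixed list; Rps3 and Rpl19 were added to show every measured gene. In the other lists the named genes are among the 3 largest folds per direction. Medians, counts and named-gene ratios of the members were recomputed under 11 other settings and 1 chosen after seeing the data; the other lists only under the other normalizations and without chromosomes 6 and 15, and the promoter-run medians, Rps3 and Rpl19 under none.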

Additional observations from a re-analysis of the deposited data

How the results depend on the processing

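No paired analysis was possible because each line has 1 array per array type, and for the same reason no replicate could be left out. Of 108 recomputed medians and counts over the ribosomal protein probe sets, 74 stayed within the ratio error (medians) or 1.5 times (counts) and 34 moved further. That ratio error is the SD of a single log2 ratio between probe sets of 1 gene, a wide limit for a median. The change from -0.02 to 0.21 for AGM-s3-A9 over AGM-s3-A7 as deposited stayed within it. Counts are of probe sets at least 1.5-fold higher or lower. With the deposited values AGM-s3-A9 over AGM-s3-A7 had 5 higher and 1 lower, beside 35.1% and 14.0% of all measured genes by their brightest probe set. OP9 over AGM-s3-A7 had 2 lower, beside 15.7%. OP9 over AGM-s3-A9 had 1 higher and 5 lower, beside 19.8% and 32.6%. The deposited Rplp2 log2 ratio for OP9 over AGM-s3-A7 was -0.0408, beside a median of -0.65 over all measured probe sets of MG-U74C. With scaling to the 75th percentile the median for AGM-s3-A9 over AGM-s3-A7 was -0.33 with 6 lower, OP9 over AGM-s3-A7 had 0 higher, and OP9 over AGM-s3-A9 had a median of 0.37 with 1 lower. With cyclic loess OP9 over AGM-s3-A9 had 2 higher and 1 lower. With spiked controls AGM-s3-A9 over AGM-s3-A7 had 3 higher, OP9 over AGM-s3-A7 had 2 higher, and OP9 over AGM-s3-A9 had 2 higher and 1 lower. With spiked controls the shares of all measured genes were 24.7% higher for AGM-s3-A9 over AGM-s3-A7 and 25.3% higher for OP9 over AGM-s3-A7. For OP9 over AGM-s3-A9 they were 14.5% higher and 18.1% lower. With the 75th percentile and cyclic loess these shares lay between 9.06% and 16.5%. The cause of these moves was not tested. Without the filter on low values (68 probe sets) there were 7 higher and 11 lower for AGM-s3-A9 over AGM-s3-A7, 11 and 9 for OP9 over AGM-s3-A7, and 11 and 7 for OP9 over AGM-s3-A9. These counts include the 38 unmeasured probe sets. No share over all unfiltered probe sets is given here, so they cannot be read as a result about the members. Without suffixed probe sets there was 1 lower for AGM-s3-A9 over AGM-s3-A7, 0 higher for OP9 over AGM-s3-A7 and 1 higher for OP9 over AGM-s3-A9. With the brightest probe set of each gene there was 1 lower for AGM-s3-A9 over AGM-s3-A7 and 2 higher for OP9 over AGM-s3-A9. On MG-U74A alone OP9 over AGM-s3-A7 had 0 higher and OP9 over AGM-s3-A9 had 2 higher. With probe sets that join a ribosomal protein gene to other symbols, a setting chosen after seeing the data, there were 1 higher and 10 lower for AGM-s3-A9 over AGM-s3-A7, 1 lower for OP9 over AGM-s3-A7, and 9 higher and 2 lower for OP9 over AGM-s3-A9. The 38 measured probe sets of that kind alone had median log2 ratios of -0.09, 0.06 and 0.23 in the same order. Their interquartile ranges were 0.46, 0.21 and 0.33. Of the recomputed values of single genes, 724 stayed within the ratio error, and 67 and the Rplp2 value above moved further. Of all 792, 75 changed sign, 26 with the deposited values, 20 with the 75th percentile, 16 with spiked controls and 13 with cyclic loess; Rplp2 was the 1 among them that had reached 1.5-fold. Signal near the detection level limits Rps29 and the 38 unmeasured probe sets.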
